A study of Mus musculus with 2 samples.

Results

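Gata3, Rora, Il1rl1, Il17rb, Kit, Areg, Il5 and Il13, a set of genes known from type 2 innate lymphoid cells, were followed across every cell cluster of the inflamed mouse kidney. The set was chosen by name, and all 8 symbols were found among the 20299 features counted. Their unique molecular identifiers (UMIs, tags that count each captured RNA molecule once) were summed by the authors' cluster and by library. Single-cell RNA was collected from the kidneys of C57BL/6 mice aged 8 weeks, 1 library labelled WT and 1 labelled Vsir-/-, which lacks VISTA, an immune checkpoint receptor of myeloid cells and T cells. Both libraries came from mice with nephrotoxic serum nephritis (NTN), so that no kidney without nephritis is among the samples. Sheep IgG (200 µg in Freund's complete adjuvant) was injected into the peritoneum and nephrotoxic serum was given 4 days later. The serum dose was 2 µL per g by the sample record, which differs from the dose in the study's methods. The knockout is of the whole animal. With 1 library per genotype there were no replicates and no test was made: each interval below is an exact 95% interval for counting error only, and a difference between the libraries is a difference between 2 libraries, not shown to be one between genotypes.

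The WT library held 5470 cells and 32799550 UMIs, and the Vsir-/- library held 1844 cells and 18601189 UMIs. Vsir itself, the deleted gene, had 4278 UMIs in the WT library and 8 in the Vsir-/- library. The WT label names sorted CD45+ cells whereas the Vsir-/- label says that all kinds of kidney cells were included. Ptprc, which encodes CD45, was detected in 94.2% of the cells in WT and 73.6% in Vsir-/-, and a list of 26 kidney tubule genes reached 287 against 8671 counts per 1000000 UMIs (CPM). Cell barcodes found in both libraries numbered 5, and 0 of them were in the ILC2 cluster. The authors sorted the cells into 16 clusters, and the ILC2 cluster held 79 WT cells (1.44% of the library, interval 1.15 to 1.80%) and 19 Vsir-/- cells (1.03%, 0.621 to 1.60%), so the kind of sort and the genotype cannot be told apart in these shares.

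Group 2 innate lymphoid cells (ILC2s) are tissue-resident lymphocytes without a rearranged antigen receptor. GATA3 and RORα are the transcription factors needed for their development. The cells are woken by alarmins released from damaged tissue: IL-33 binds ST2, encoded by Il1rl1, and IL-25 binds a receptor that contains the product of Il17rb. Kit encodes the receptor for stem cell factor and is found on some innate lymphoid cells and on mast cells. Activated ILC2s release IL-5, which sustains eosinophils, IL-13, which acts on epithelium, macrophages and fibroblasts, and amphiregulin, encoded by Areg, a ligand of the epidermal growth factor receptor with a role in tissue repair. None of these genes belongs to ILC2s alone: GATA3 also serves T cells, RORα serves T cells that make IL-17, and ST2 marks a subset of regulatory T cells, mast cells and basophils.

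The 250 bases before the annotated start of each gene were taken from RefSeq (mouse build GRCm38.p6, matched by symbol, with all 8 genes found), because both transcription factors of the set have well-known recognition words. A GATA word was a run of the letters AGATAA, or of AGATAG, or of TGATAA, or of TGATAG, and a ROR half-site was the run AGGTCA, each on either strand. The submitters' notes name build mm9 for the counts, so the sequences serve as context and not as measured regions. The cytokine genes Il5 and Il13, neighbours on chromosome 11, and the 2 annotated starts of Il1rl1 are shown, since the cytokine pair shares a locus and Il1rl1 held the most GATA words of the set. Capitals mark a GATA word, or the ROR half-site in the second Il1rl1 window, and every line reads 5′ to 3′ in the direction of the gene.
Il5, plus strand, chr11:53720544-53720793: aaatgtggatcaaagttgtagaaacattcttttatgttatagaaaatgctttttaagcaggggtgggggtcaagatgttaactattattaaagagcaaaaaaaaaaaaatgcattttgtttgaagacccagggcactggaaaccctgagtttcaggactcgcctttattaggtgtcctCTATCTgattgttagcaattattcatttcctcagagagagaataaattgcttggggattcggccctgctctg
Il13, minus strand, chr11:53634703-53634952: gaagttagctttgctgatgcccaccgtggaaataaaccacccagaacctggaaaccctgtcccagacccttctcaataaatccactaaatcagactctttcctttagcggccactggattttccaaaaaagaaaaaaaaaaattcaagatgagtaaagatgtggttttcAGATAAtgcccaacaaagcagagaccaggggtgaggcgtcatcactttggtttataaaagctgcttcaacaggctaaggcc
Il1rl1, farther start, plus strand, chr1:40429320-40429569: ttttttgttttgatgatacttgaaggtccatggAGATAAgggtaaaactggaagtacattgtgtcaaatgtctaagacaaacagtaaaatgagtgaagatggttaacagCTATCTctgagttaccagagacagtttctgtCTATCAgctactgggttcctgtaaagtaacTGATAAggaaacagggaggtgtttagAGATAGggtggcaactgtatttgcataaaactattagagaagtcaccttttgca
Il1rl1, nearer start, plus strand, chr1:40439379-40439628: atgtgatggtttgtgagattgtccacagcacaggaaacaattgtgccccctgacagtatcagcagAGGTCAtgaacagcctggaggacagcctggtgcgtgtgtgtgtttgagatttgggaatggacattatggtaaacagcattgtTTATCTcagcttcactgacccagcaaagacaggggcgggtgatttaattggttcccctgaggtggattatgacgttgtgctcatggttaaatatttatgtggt
The farther Il1rl1 window held 5 GATA words and the nearer one held 1, as did the windows of Il5, Il13 and Rora. Windows of Gata3, Areg, Il17rb and Kit held 0. In all, 4 of the 8 genes had a GATA word in at least 1 window, beside 29.7% of the 27025 genes in the table, and 26.5% of all 32851 windows held one. The single ROR half-site, in the nearer Il1rl1 window, is a word found in 14.0% of all windows. A match is a run of letters and not a bound site, and binding was not measured.

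The ILC2 cluster had the highest summed level of the 8 genes in both libraries. Their UMIs came to 3393 CPM in WT ILC2 cells (1369 UMIs) and 2386 CPM in Vsir-/- ILC2 cells (347 UMIs). The next cluster, γδ T cells (gdT), stood at 784 CPM in WT and 841 CPM in Vsir-/-, and effector memory-like (EM-like) CD4+ T cells followed at 433 and 460 CPM. The order of these 3 clusters was the same in both libraries and none of their intervals overlapped. At the other end, WT B cells had 6.32 CPM. Because the clusters were built and named by the authors from the same cells' expression, the height of these genes there is a description. Other ILC2 markers were present as well, among them Il7r (820 and 364 CPM in WT and Vsir-/-) and Arg1 (233 and 330 CPM). Calca stood at 292 and 261 CPM, Hlf at 216 and 131 CPM and Cxcr6 at 354 and 261 CPM. These markers may have shaped the same clusters, so their presence does not check the label. Foxp3, the regulatory T cell factor, had 0 UMIs in the cluster in both libraries. The regulatory T cell list of 5 genes that it belongs to (with Ikzf2, Ctla4, Il2ra and Tnfrsf18) was not absent. It summed to 917 CPM in WT (74 of 79 cells), against 147 CPM in all other WT cells. In Vsir-/- it summed to 688 CPM (18 of 19 cells), against 77.4 CPM.

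**Figure D1:**
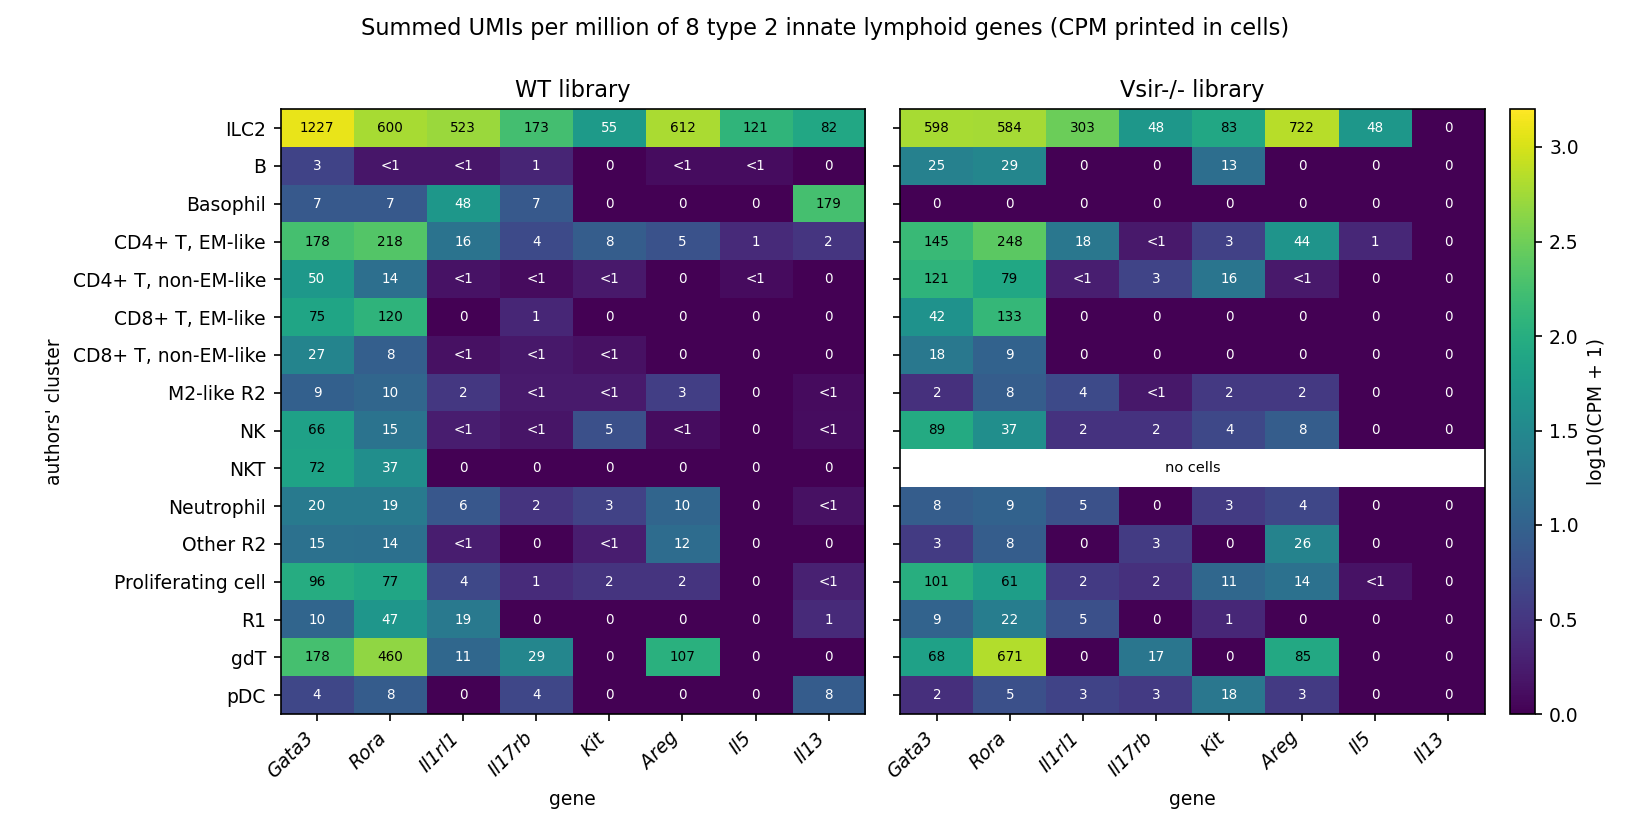
Level of each gene (columns) in each cluster (rows) for the WT library (left) and the Vsir-/- library (right), with colour on a log10(CPM + 1) scale and the CPM printed in each cell. The ILC2 row is the brightest for most genes, Rora is also bright in gdT cells, and Il13 reaches 179 CPM in WT basophils.

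Transcripts of the T cell receptor complex were found in the ILC2 cluster, at a lower level than in EM-like CD4+ T cells. At least 1 UMI of the 6 genes of the T cell receptor complex was present in 60 of 79 WT and 17 of 19 Vsir-/- cells, mostly of Trbc1 or Trbc2 (57 and 17 cells), the constant parts of the β chain. The 3 Cd3 genes, which encode the signalling chains, were found in 15 and 6 cells, at 278 and 172 CPM against 2142 and 2408 CPM in EM-like CD4+ T cells. Trac, the constant part of the α chain, was found in 8 and 2 cells. A γδ T cell list of 5 genes was not reduced in WT. It had 79 UMIs in 36 of 79 WT cells (196 CPM, against 92.9 CPM in all other WT cells). In Vsir-/- it had 9 UMIs in 5 of 19 cells (61.9 against 66.8 CPM). Defining transcripts of mast cells were at or near 0, with 1 UMI in WT and 0 in Vsir-/- over the 3 listed genes present (Tpsb2, Mcpt4 and Cma1), and the basophil genes Mcpt8, Gata2, Fcer1a and Ms4a2 had 0 UMIs in the cluster in both libraries. The whole basophil and mast cell list of 13 genes had 52 UMIs in 20 of 79 cells in WT and 13 UMIs in 4 of 19 in Vsir-/-. Of these, Hdc, the histamine-forming enzyme, had 28 UMIs in 2 WT cells and 2 UMIs in Vsir-/-, and Cpa3 had 17 UMIs in 14 WT cells and 6 UMIs in 3 Vsir-/- cells.

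Kidney transcripts separated the 2 libraries within the ILC2 cluster. The 26 tubule genes summed to 146 CPM in WT and 9667 CPM in Vsir-/- ILC2 cells, beside 8663 CPM in all other Vsir-/- cells. The 9667 CPM rested on few cells. Vsir-/- cells of 33700 and 16233 UMIs held 759 and 362 of the 1406 tubule UMIs. The median over the Vsir-/- cells was 2764 CPM, and the sum without the deepest cell was 5790 CPM. The most abundant were Gpx3, Fxyd2, Slc27a2, Miox and Atp1b1, of which Gpx3 had 0 WT and 286 Vsir-/- UMIs. Of 16 tubule genes that passed the filter, 16 were at least 2-fold higher in Vsir-/-, beside 11.4% of all genes that passed. Of the 26 listed, 20 had 0 UMIs in WT ILC2 cells. Those among the 16 passed through Vsir-/- alone and could only come out higher, so the count is no further result. Genes induced by tissue dissociation (Fos, Jun and 12 others) summed to 10349 and 16460 CPM. The part of free kidney RNA and of dissociation in the member levels was not tested. Taking mitochondrial and tubule genes out of the denominator left the Gata3 log2 ratio at -1.01, beside -1.03 with them. At 9667 CPM the tubule genes are a small part of the denominator, so this change could move the ratio little and does not test free RNA.

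A single cell weighs on every Vsir-/- value of this cluster. The deepest of the 19 Vsir-/- cells held 33700 UMIs, 23.2% of the UMIs of the group, where the deepest WT cell held 14573. It carried 15 UMIs of Rora and 8 of Areg but 1 of Gata3 and 0 of Il1rl1, and 759 UMIs of tubule genes. The log2 ratio of each of the 8 genes is therefore given with and without it, a choice made after the values were seen, and values of other genes include it unless said otherwise.

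Gata3, the master transcription factor of the type 2 programme, was detected in 76 of 79 cells in WT (96.2%) and 18 of 19 in Vsir-/- (94.7%) of the ILC2 cluster. Its level was 1227 CPM in WT (495 UMIs) and 598 CPM in Vsir-/- (87 UMIs), so the Vsir-/- library was lower by a log2 ratio of -1.03 (interval -1.38 to -0.70). Without the deepest Vsir-/- cell the level was 770 CPM and the log2 ratio -0.67 (-1.02 to -0.34), under 2-fold. It was -0.33 after thinning to 1000 UMIs (100 and 19 UMIs) and -0.55 with every cell weighted equally. The intervals of the levels did not overlap with or without that cell. Gata3 UMIs were spread over the cells: the highest WT cell had 18 of 495, the highest Vsir-/- cell had 10 of 87, and the median over cells with the gene was 6 in WT and 4 in Vsir-/-.

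Rora, which encodes the nuclear receptor that ILC2 precursors need, stood at 600 CPM in WT (242 UMIs) and 584 CPM in Vsir-/- (85 UMIs). The log2 ratio was -0.03 (-0.41 to 0.32), and 0.07 (-0.34 to 0.45) without the deepest cell, and both intervals took in 0. After thinning it was 0.51 (50 and 17 UMIs). A Rora UMI was seen in 59 of 79 cells in WT (74.7%) and 18 of 19 in Vsir-/- (94.7%). After thinning each cell to 1000 UMIs these shares were 43.6% (32.4 to 55.3%) and 68.4% (43.4 to 87.4%), with overlapping intervals.

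Il1rl1, the IL-33 receptor chain, was found in 91.1% of WT cells (72 of 79) and 89.5% of Vsir-/- cells (17 of 19). Its level reached 523 CPM in WT (211 UMIs) and 303 CPM in Vsir-/- (44 UMIs), a log2 ratio of -0.78 (-1.29 to -0.32). Without the deepest cell the Vsir-/- level was 394 CPM and the interval of the log2 ratio took in 0 (-0.40, -0.91 to 0.07). After thinning the log2 ratio was -0.36 (39 and 7 UMIs). The highest cell held 10 of the 211 WT UMIs and 9 of the 44 Vsir-/- UMIs.

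Il17rb, the IL-25 receptor chain, was detected in 34 of 79 cells in WT (43.0%) and 7 of 19 in Vsir-/- (36.8%). The WT cells held 70 UMIs (173 CPM), up to 7 in 1 cell, whereas every Vsir-/- cell with the gene held 1 UMI (7 UMIs, 48.1 CPM). The log2 ratio was -1.76 (-3.22 to -0.73), and -1.38 (-2.84 to -0.35) without the deepest cell. After thinning to 1000 UMIs, where 12 and 2 UMIs were left, it was -0.28. The intervals of the shares overlapped (31.9 to 54.7% and 16.3 to 61.6%), while those of the CPM did not.

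Kit, the stem cell factor receptor, was at 54.5 CPM in WT (22 UMIs in 16 cells) and 82.5 CPM in Vsir-/- (12 UMIs in 7 cells). Its log2 ratio of 0.62 had an interval from -0.55 to 1.68, too wide to show a difference in either direction at this depth, and it was 0.88 (-0.34 to 1.96) without the deepest cell. Of the 16 WT cells with Kit, 15 also held Gata3, 13 held Il1rl1 and 8 held Il17rb.

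Areg, the repair-associated growth factor, was seen in 27 of 79 cells in WT (34.2%, 23.9 to 45.7%) and 13 of 19 in Vsir-/- (68.4%, 43.4 to 87.4%). Its level was 612 CPM in WT (247 UMIs) and 722 CPM in Vsir-/- (105 UMIs), a log2 ratio of 0.24 (-0.11 to 0.57). The WT level rested on few cells: 1 cell held 73 of the 247 UMIs, and the top 5 cells held 61.9%. With every cell weighted equally the log2 ratio was 1.05, and without the deepest Vsir-/- cell it was 0.51 (0.15 to 0.85). At 1000 UMIs per cell the shares were 17.9% (10.2 to 28.3%) and 42.1% (20.3 to 66.5%), which overlap. The log2 ratio was above 0 under every alternative run, from 0.12 to 2.42. These alternatives share most of their cells, and the reported interval took in 0. The 2.42 came from cells with no T cell receptor transcript, of which Vsir-/- had 2. In 1 of these 2 cells lay 22 of their 23 Areg UMIs.

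Il5, the eosinophil growth factor, was at 121 CPM in WT (49 UMIs in 7 cells) and 48.1 CPM in Vsir-/- (7 UMIs in 4 cells). The log2 ratio of -1.25 (-2.72 to -0.18) rested on 1 WT cell that held 37 of the 49 UMIs. Without the deepest Vsir-/- cell the log2 ratio was -0.87 with an interval that took in 0 (-2.34 to 0.20). Without the top cell of each library it was 0.04, and the WT level was 30.3 CPM. The share of cells with Il5 was 8.86% (3.64 to 17.4%) in WT and 21.1% (6.05 to 45.6%) in Vsir-/-, in the opposite order to the CPM, so no order is read from the pair.

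Il13, the effector cytokine that acts on epithelium and fibroblasts, had 33 UMIs in 10 of the 79 WT cells (81.8 CPM, 56.3 to 115 CPM) and 0 UMIs in the 19 Vsir-/- cells. A count of 0 allows up to 20.6 CPM there (3 UMIs over the group), which is 3.96-fold under the WT value, or 3.05-fold without the deepest cell. These folds take the WT level as exact. With counting error on both sides, the interval of the log2 ratio ended at -1.61, or -1.23 without the deepest cell. Among cells, 0 of 19 leaves room for a share of 15.8%, above the 12.7% of WT cells with the gene, so the share of cells cannot be told from that in WT. The whole Vsir-/- library held 0 Il13 UMIs among 18601189, a limit of 0.161 CPM, where the WT library held 73 UMIs (2.23 CPM). Of the 10 WT ILC2 cells with Il13, 10 also had Gata3, Il1rl1 and Rora, and 3 had Il5.

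**Figure D2:**
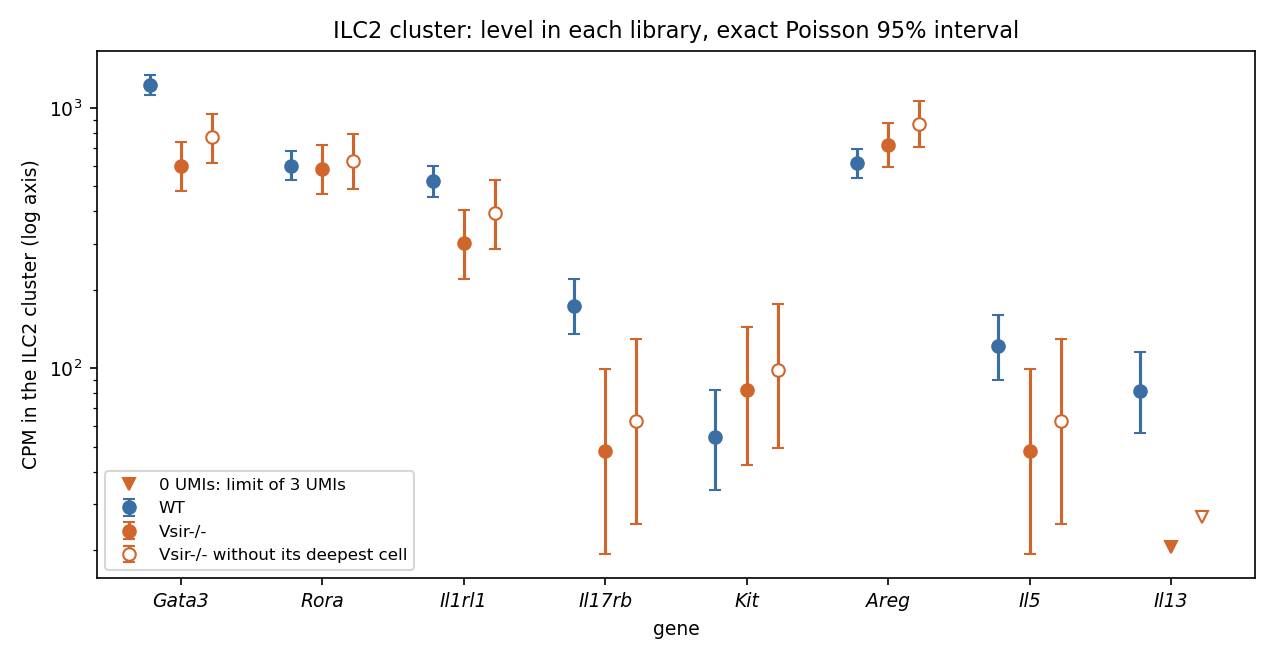
Level of each gene in the ILC2 cluster (log axis, CPM) in WT (blue), Vsir-/- (filled orange) and Vsir-/- without its deepest cell (open orange), with exact Poisson 95% intervals and triangles for the limit that 0 UMIs allow. Gata3, Il17rb and Il13 lie lower in Vsir-/- with and without that cell, and the Rora intervals of both libraries overlap.

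Past 2-fold, among the 8 genes that all passed the filter of 20 UMIs in the cluster, 4 were lower in Vsir-/- (Gata3, Il17rb, Il5 and Il13) and 0 were higher. Il17rb, Il5 and Il13 passed through their WT counts (70, 49 and 33 UMIs, beside 7, 7 and 0 in Vsir-/-). For Il5 no order is read, since 1 WT cell held 37 of the 49 UMIs. The count is therefore a description. Among all 3957 genes that passed, 23.7% differed at least 2-fold, 12.3% lower and 11.4% higher. Without the deepest cell 2 of the 8 genes remained past 2-fold, Il17rb and Il13, beside 12.0% of 3647 genes lower. The median log2 ratio over the 8 genes was -0.90, or -0.53 without that cell, and that over all genes was -0.11 and -0.10.

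**Figure D3:**
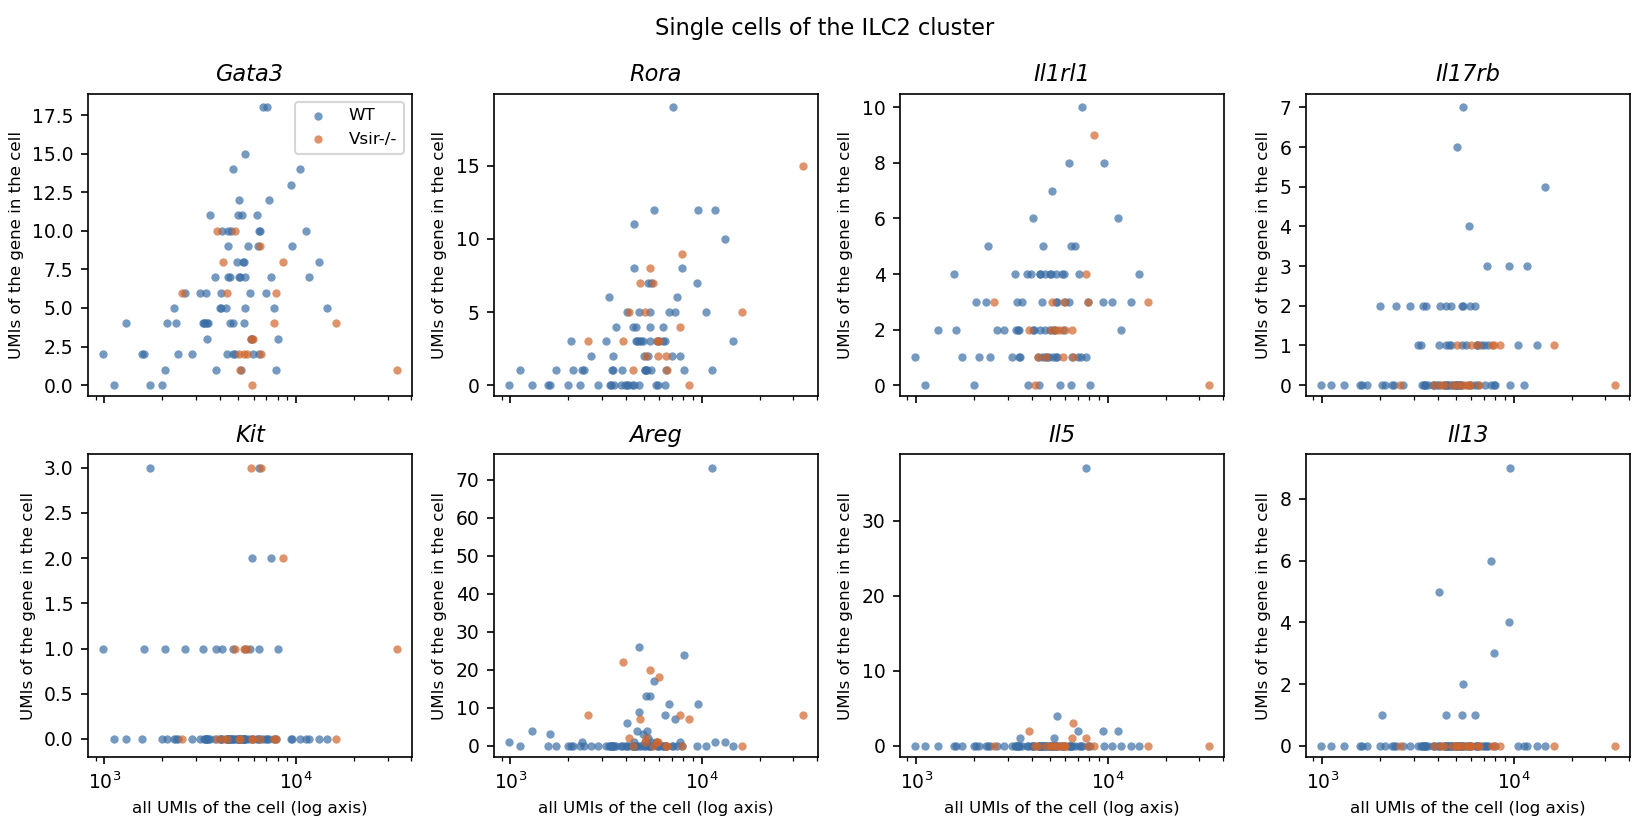
UMIs of each gene in single cells of the ILC2 cluster (vertical axis) against all UMIs of the cell (log axis), with 79 WT cells in blue and 19 Vsir-/- cells in orange. Gata3 and Il1rl1 are spread over most cells, whereas 1 WT cell holds 37 of 49 Il5 UMIs and 1 holds 73 of 247 Areg UMIs; the orange point at the far right is the cell of 33700 UMIs.

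Receptors, regulators, effectors and ligands of the same pathway were described from lists. Among all genes that passed in the cluster, 12.3% were at least 2-fold lower in Vsir-/- and 11.4% higher. Of 21 further receptors among the features, 16 passed the filter and 3 of these were at least 2-fold lower in Vsir-/- ILC2 cells (Il17ra, the shared partner of Il17rb, Il7r and Il9r), with 0 higher. Il17ra stood at 74.3 CPM in WT (30 UMIs) and 13.8 CPM in Vsir-/- (2 UMIs). It was the one still past 2-fold without the deepest cell (log2 ratio -2.49, on 1 Vsir-/- UMI). Il7r, the receptor for the survival factor IL-7, had 331 and 53 UMIs and a log2 ratio of -1.16 (-1.62 to -0.75), or -0.83 without that cell. Il2ra, the high-affinity IL-2 receptor chain, stood at 404 and 268 CPM, Il2rg at 520 and 419 CPM and Icos, a costimulator, at 278 and 268 CPM. Klrg1, an inhibitory receptor of mature ILC2s, stood at 116 and 144 CPM, and the early activation marker Cd69 at 788 and 516 CPM. The neuropeptide receptor chain Ramp1 was at 203 and 323 CPM, and Cysltr1, a leukotriene receptor, at 208 and 110 CPM.

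Of 12 regulators that passed, 4 were at least 2-fold lower (Bcl11b, Tox, Batf and Nfkb1) and 1 was higher, Bhlhe40, beside 12.3% and 11.4% of all genes. Bhlhe40, an activation-induced repressor, stood at 332 CPM in WT and 715 CPM in Vsir-/-, a log2 ratio of 1.11 (0.72 to 1.49), and 1.30 without the deepest cell. Bcl11b, which keeps ILC2 identity, stood at 377 and 172 CPM, and Nfkb1 at 682 and 316 CPM, with log2 ratios of -0.91 and -0.99 without that cell. Tox alone of the 4 stayed past 2-fold (-1.75), on 3 Vsir-/- UMIs. Batf (-0.95) also had 3 Vsir-/- UMIs there, so these counts are too low to set the 2 apart. Id2, required by all innate lymphoid cells, was at 1207 and 832 CPM, Ets1 at 503 and 275 CPM, Maf at 290 and 268 CPM and Hlf at 216 and 131 CPM.

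Of 9 other effectors that passed, Lif was at least 2-fold higher (13 and 10 UMIs, log2 ratio 1.11, -0.26 to 2.40) and Ly6a lower, beside 11.4% and 12.3% of all genes. Without the deepest cell 8 passed, with 0 higher and 0 lower. Ly6a, which encodes the surface antigen Sca-1, stood at 1358 and 564 CPM, with a log2 ratio of -1.26 (-1.62 to -0.93), or -0.93 without the deepest cell. Csf2, which encodes GM-CSF, was at 255 and 206 CPM, the arginase gene Arg1 at 233 and 330 CPM, the neuropeptide gene Calca at 292 and 261 CPM, the chemokine Ccl5 at 233 and 193 CPM and Tnfsf11 at 124 and 82.5 CPM. Among ligands, 3 of 13 passed, Il2 was higher (18 and 13 UMIs, log2 ratio 1.02, -0.15 to 2.11), and Tgfb1 was at 240 and 179 CPM.

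The alarmins themselves were hardly in the WT library. Il33 had 0 UMIs in WT and 59 in Vsir-/-, with 28 of these in the Proliferating cell cluster. Tslp had 5 and 57 UMIs, of which 45 were in the Vsir-/- non-EM-like CD4+ cluster, and Kitl, the ligand of Kit, had 0 and 1133. The receiving side was split the same way for Egfr, through which amphiregulin acts, with 0 and 199 UMIs. Il5ra, the IL-5 receptor chain, had 58 WT UMIs, 42 of them in B cells, and 16 in Vsir-/-. Il33, Tslp, Kitl and Egfr are in the main expressed by epithelium, endothelium and stroma. The study's methods describe a CD45+ sort, which would remove such cells, while the label of the Vsir-/- library does not, so the genotype and the cells admitted cannot be told apart.

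Within the ILC2 cluster the genes were seen together in most cells. A cell held a median of 4 of the 8 genes in WT and 5 in Vsir-/-. At least 3 of the 8 were found in 69 of 79 cells in WT and 19 of 19 in Vsir-/-, and 1 WT cell held all 8. These counts are at full depth and depend on it, with a median of 4695 UMIs per WT cell and 5799 per Vsir-/- cell. Il1rl1 was present in 71 of the 76 WT cells with Gata3 and in 16 of the 18 Vsir-/- cells with Gata3. Among the cytokines, of the 27 WT cells with Areg, 5 held Il13 and 3 held Il5, and 3 WT cells held Il5 and Il13. WT cells with Areg had 1106 CPM of Gata3 and 487 CPM of Il1rl1, against 1304 and 546 CPM in WT cells without Areg, and their summed T cell receptor transcripts were 1454 against 795 CPM. Deep cells weigh on both of these sums. WT cells with Areg of 8015, 11305 and 13246 UMIs held 38, 44 and 51 T cell receptor UMIs. A WT cell of 14573 UMIs without Areg held 54, and all WT cells of the cluster held 425. In Vsir-/- the dissociation genes stood at 18292 CPM in cells with Areg and 12641 CPM in cells without it, and their part in Areg was not tested.

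Outside the ILC2 cluster the genes divided into those that stayed with it and those that did not. In WT the cluster held 89.1% of all Il5 UMIs (77.8 to 95.9%), 70.2% of Areg, 65.5% of Il1rl1 and 61.4% of Il17rb, but 45.2% of Il13, 26.2% of Kit, 23.9% of Gata3 and 15.5% of Rora. In Vsir-/- the shares were 63.6% for Il5 (7 of 11 UMIs), 39.6% for Il1rl1, 36.2% for Areg, 16.7% for Il17rb, 6.74% for Kit, 6.28% for Rora and 6.06% for Gata3. These shares move with the number of cells in each cluster. Of the summed UMIs of the 8 genes, the ILC2 cluster held 29.6% in WT and 10.1% in Vsir-/-.

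**Figure D4:**
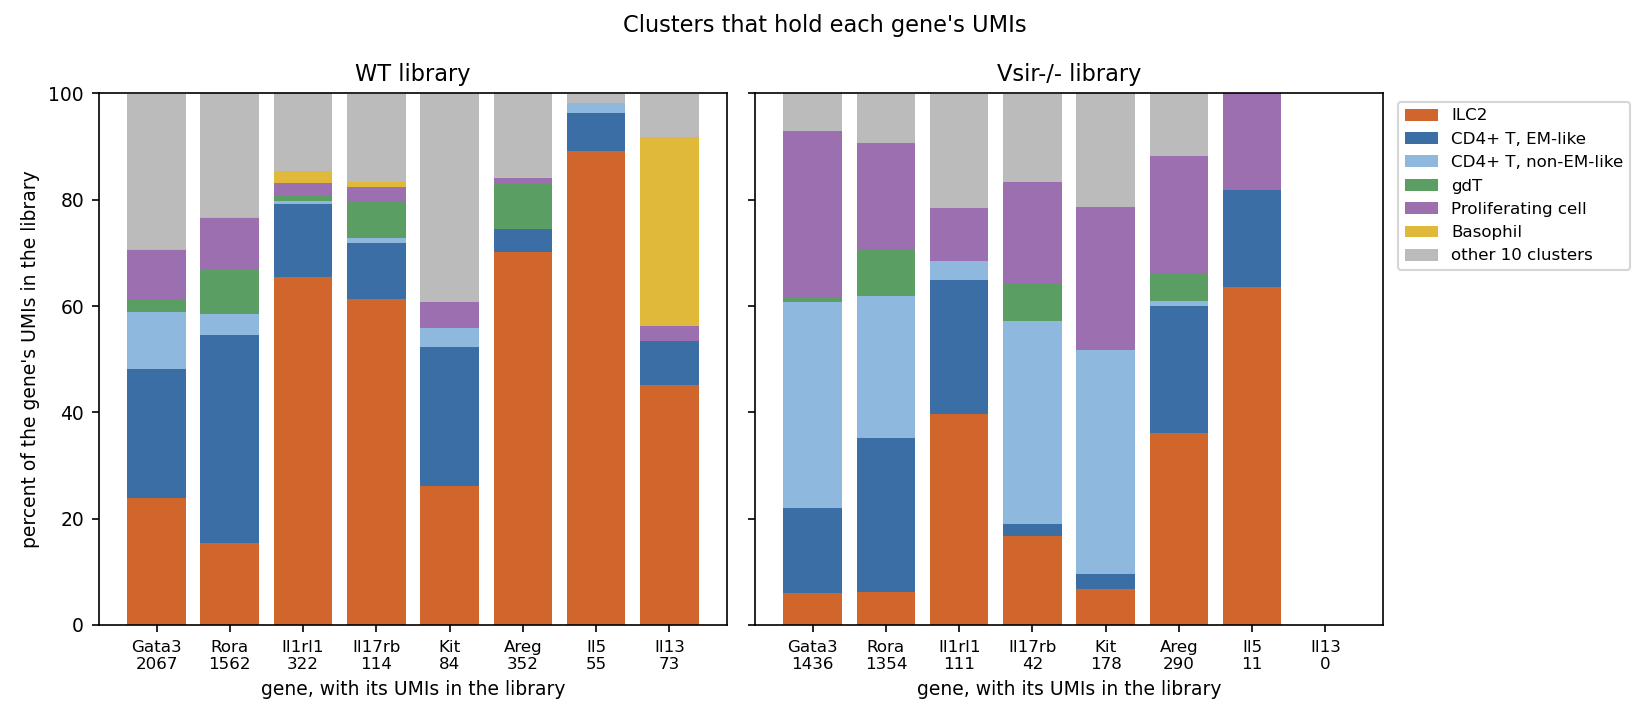
Percent of each gene's UMIs held by each cluster (stacked bars that sum to 100%) in the WT library (left) and the Vsir-/- library (right), with the UMIs of the gene in the library under its name. The ILC2 cluster holds most of Il5 in both libraries, Il13 is shared between ILC2s and basophils in WT and has 0 UMIs in Vsir-/-, and the non-EM-like CD4+ and Proliferating cell clusters hold more of Gata3, Rora and Kit in Vsir-/- than in WT.

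In γδ T cells, the second cluster by summed level, Rora made up most of it. Rora stood at 460 CPM in WT (129 UMIs in 38 of 46 cells) and 671 CPM in Vsir-/- (119 UMIs in 23 of 28 cells), a log2 ratio of 0.55 (0.17 to 0.92). Gata3 stood at 178 and 67.7 CPM, a log2 ratio of -1.35 (-2.44 to -0.47), in 26 of 46 and 10 of 28 cells. Areg had like sums, 30 UMIs (107 CPM) and 15 UMIs (84.6 CPM), but all 30 WT UMIs were in 1 cell whereas the Vsir-/- UMIs were spread over 7 cells. Of these 7 Vsir-/- cells, 7 carried Trdc, the γδ receptor constant gene, and 6 carried Il17a, beside 26 and 21 of all 28 Vsir-/- cells of the cluster. Il5, Il13 and Kit had 0 UMIs in γδ T cells of both libraries.

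In EM-like CD4+ T cells, Areg was higher in the Vsir-/- library. It had 15 UMIs in 6 of 489 WT cells (5.35 CPM) and 69 UMIs in 22 of 244 Vsir-/- cells (43.7 CPM), a log2 ratio of 2.99 (2.21 to 3.94), and 3.21 without the top cell of each library. The share of cells was 1.23% (0.452 to 2.65%) in WT and 9.02% (5.74 to 13.3%) in Vsir-/-. After thinning to 1000 UMIs the shares were 0.418% (0.0506 to 1.5%) and 3.73% (1.72 to 6.97%), and these intervals did not overlap either. In B cells, which should lack it, Areg was found in 0.103% of WT cells and in 0 of 88 in Vsir-/- (a count of 0 permits at most 3.41%), with medians of 3426 and 3596.5 UMIs per cell against 4903 and 5852.5 in the EM-like CD4+ cells. Among genes that passed in this cluster, 10.4% were at least 2-fold higher and 5.41% lower in Vsir-/-. Of the 5 members that passed, Areg was past 2-fold higher and Kit (22 and 5 UMIs, interval -3.07 to 0.13) past 2-fold lower. Areg was also higher in the Proliferating cell cluster (4 and 64 UMIs, log2 ratio 2.70, 1.43 to 4.77). The 64 UMIs lay in 6 cells, and 37.5% of all genes there were at least 2-fold higher. In Other R2 macrophages Areg had 16 and 20 UMIs (1.04, 0.03 to 2.10). Its log2 ratio was below 0 in neutrophils (-1.19) and γδ T cells (-0.31), with intervals that took in 0.

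The EM-like CD4+ cells with Areg were few in WT, and what else they held is given as counts. Of the 6 WT cells, 4 held Il1rl1, 5 held Gata3, 1 held Foxp3 and 0 held Il17a. Of the 22 Vsir-/- cells, 0 held Il1rl1, 15 held Gata3, 19 held Rora, 4 held Foxp3, 6 held Il17a and 17 held Cd4. Ifng was in 4 of the 22 and Cd8a in 0. Over all 244 Vsir-/- cells of the cluster, 13 held Il1rl1, 110 Gata3, 146 Rora, 15 Foxp3, 79 Cd4, 143 Ifng and 37 Cd8a. In the whole cluster Il17a was in 4 of 489 cells in WT and 22 of 244 in Vsir-/-, so the cluster's own rates differed as well. Il1rl1 itself was at 15.7 CPM in WT (44 UMIs in 23 cells) and 17.8 CPM in Vsir-/- (28 UMIs in 13 cells), and 7 of the 23 WT cells but 2 of the 13 Vsir-/- cells carried Foxp3. Gata3 stood at 178 and 145 CPM (log2 ratio -0.30, -0.53 to -0.07) and Rora at 218 and 248 CPM (0.19, 0.00 to 0.37).

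**Figure D5:**
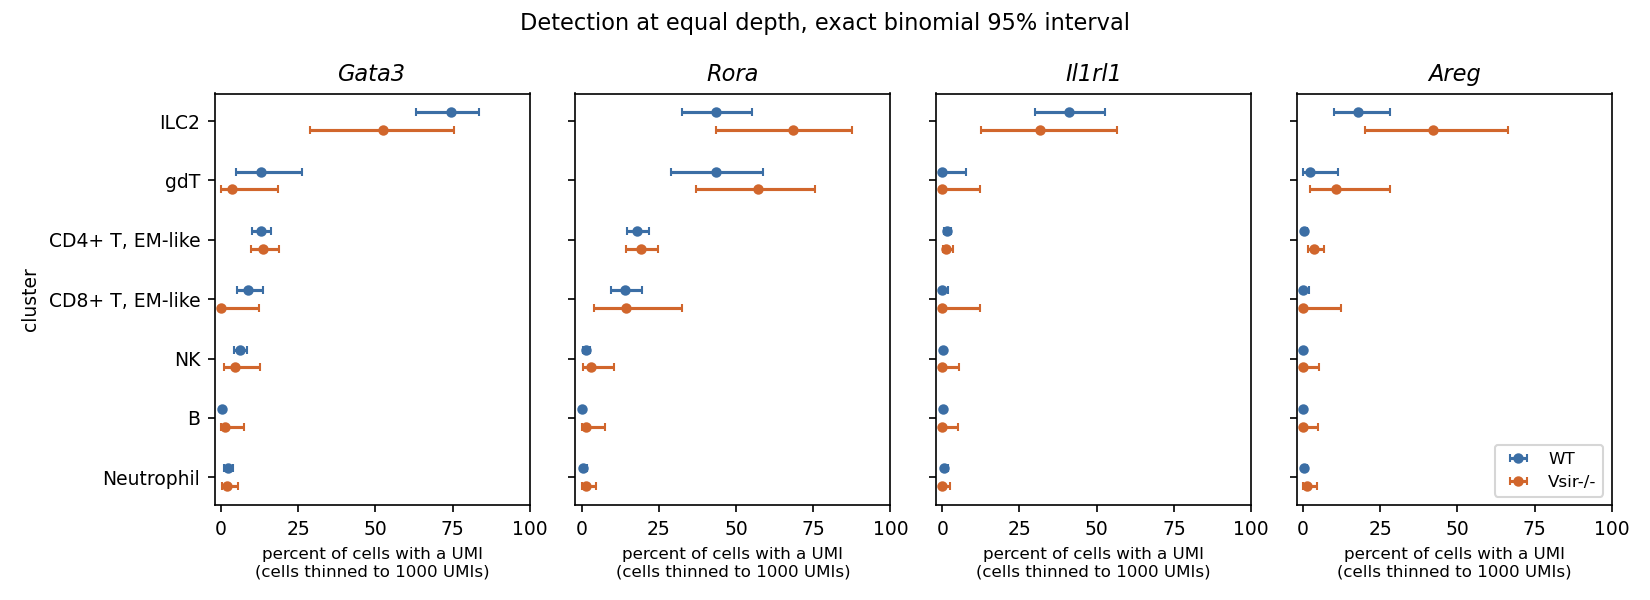
Percent of cells with a UMI of Gata3, Rora, Il1rl1 and Areg (panels) in 7 clusters (rows) after each cell was thinned to 1000 UMIs, with exact binomial 95% intervals, WT in blue and Vsir-/- in orange. Il1rl1 stands out in ILC2s, the Rora intervals of gdT cells overlap those of ILC2s, and Areg in EM-like CD4+ cells is 0.418% in WT and 3.73% in Vsir-/-.

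In the non-EM-like CD4+ cluster, members were higher in Vsir-/-, as was a large share of all genes. Gata3 had 222 UMIs in WT (49.8 CPM) and 556 in Vsir-/- (121 CPM), Rora had 61 (13.7 CPM) and 361 (78.5 CPM), and Kit had 3 (0.673 CPM) and 75 (16.3 CPM). These 3 members passed the filter and 3 were at least 2-fold higher, beside 47.8% of all genes higher and 10.7% lower, so the count is not a result about these genes. Of the 349 Vsir-/- cells of the cluster, 233 had no T cell receptor transcript, and those 233 held 22597 CPM of tubule genes, 15 cells with Ptprc, and 382 of the 556 Gata3 UMIs, 51 of the 75 Kit UMIs and 276 of the 361 Rora UMIs. Gata3 and Kit are also known in the collecting duct and the tubule. Among the 63 of these cells with Aqp2, the water channel of the collecting duct, Gata3 was at 144 CPM and Kit at 29 CPM, against 88.6 and 4.22 CPM in the 170 without Aqp2. In the cells of the cluster that did have a T cell receptor transcript, 895 in WT and 116 in Vsir-/-, Gata3 stood at 49.8 and 143 CPM and tubule genes at 357 and 9450 CPM.

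Il13 had a second source in WT. Basophils held 26 UMIs in 6 of 25 cells (179 CPM, 117 to 262 CPM), of which 17 were in 1 cell, and 7 UMIs of Il1rl1 in 5 cells (48.1 CPM). They also held Il4 (31 UMIs in 15 cells) and their defining genes Mcpt8 (361 UMIs), Gata2 (158 UMIs) and Hdc (400 UMIs), and 0 UMIs of Kit and of the mast cell genes Tpsb2, Mcpt4 and Cma1. The Vsir-/- library held 2 basophils, with 0 UMIs of Il13, so nothing can be said of Il13 in basophils there. Without its top cell the WT basophil level was 64.9 CPM, beside 60.9 CPM in WT ILC2s without theirs.

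Kit in the Vsir-/- library had a further place, the pDC cluster, named by the authors for plasmacytoid dendritic cells, with 21 UMIs in 16 of 86 cells (17.8 CPM) and 0 in the 21 WT cells. Of the 16 cells with Kit, 16 held Ptprc and Cd74, 15 held Bst2, 14 held Flt3, 7 held Xcr1, 1 held Siglech and 2 held Aqp2. Over all 86 cells of the cluster, 84 held Ptprc, 86 Cd74, 78 Bst2, 49 Flt3, 22 Xcr1, 20 Siglech and 13 Aqp2. The WT cluster of 21 cells allows up to 11.3 CPM by a count of 0. In R1 macrophages, the kidney-resident subset, Rora was at 47.5 CPM in WT and 21.9 CPM in Vsir-/- and Il1rl1 at 18.7 and 5.0 CPM, with 13 of the 33 WT Rora UMIs in 1 cell.

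Cells that carried at least 3 of the 8 genes under another cluster's name were few, and as a group deeper than other cells. There were 50 of 5391 cells in WT (0.927%, 0.689 to 1.22%) and 61 of 1825 in Vsir-/- (3.34%, 2.57 to 4.27%), and their median depth was 9076.5 and 25181 UMIs against 4727 and 6709 for all cells outside the ILC2 cluster. At 1000 UMIs per cell the counts were 3 and 1, so the difference in these counts cannot be told from depth. In WT 23 of the 50 were EM-like CD4+ T cells, 14 of them with Il1rl1 and 4 with Foxp3. In Vsir-/- 21 were in the Proliferating cell cluster, 20 were EM-like CD4+ T cells, 14 of them with Areg and with a median of 5973 UMIs against 5852.5 in their cluster, and 15 were in the non-EM-like CD4+ cluster, where their median depth was 57413 UMIs and 13 held Kit. A receptor transcript of T cells was present in 48 of the 50 WT cells and 39 of the 61 Vsir-/- cells.

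Across 29 units (clusters of at least 20 cells in each library) the pattern of the members was compared with that of 11257 other genes by Pearson's r of log2(CPM + 10), given as a description since the units of a library share depth and free RNA. The 19 Vsir-/- ILC2 cells fell under the minimum, so the ILC2 pattern rests on the WT ILC2 cluster alone. The pattern of the summed members was most like that of Cish (r = 0.875), a cytokine-induced suppressor of signalling, and then, among others, that of Atxn1, Axin2, Podnl1, Rbl2, Tnfsf11 and Zfp148 (0.837 to 0.813). Tnfsf11 had 124 CPM in WT ILC2 cells and 2.65 CPM in all other WT cells. Areg and Il17rb were each most like Csf2 (0.884 and 0.871), which had 255 CPM in WT ILC2 cells and 1.17 CPM in other WT cells, and next Tnfsf11 and Slc6a13. Il5 was most like Calca (0.889) and Lztfl1, and Il1rl1 like Gm26802 and Calca. Gata3 was most like Csnk1g2 and Adgrl1, Rora like St6galnac3 and Crmp1, Kit like Rnf128 and Pard3, and Il13 like Mboat1 and Nt5c3. Among the members themselves r was highest between Areg and Il17rb (0.872) and Il1rl1 and Il5 (0.862) and lowest between Il13 and Rora (0.094). Il5 stood at 121 CPM in WT ILC2 cells and at most 1.43 CPM in any other unit. Each r of Il5, that with Calca included, therefore rests on 1 unit.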

How the data were processed

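Kidney cells were captured with the 10x Genomics 3' chemistry (version 3.1), 1 library of WT and 1 of Vsir-/- mice. Per the submitters' processing notes, Cell Ranger 3.1.0, R 4.0.3 and Seurat 3.2.3 were used with build mm9, and the deposited matrix holds whole-number UMI counts for 7314 cells and 20299 features, after the authors' filter that left cells at up to 10.0% mitochondrial UMIs. The deposited percent of mitochondrial UMIs and the authors' cluster names were taken from their cell table. How doublets were treated is not given in the sources used here, and no doublet caller was run. Counts were summed per cluster and library and divided by all UMIs of the same cells (CPM). Intervals are exact: Poisson for CPM, Clopper-Pearson for shares, and conditional binomial for ratios. A log2 ratio adds 0.5 UMIs to each count. A 0 was set to a limit of 3 UMIs. For counts of genes past 2-fold, genes needed 20 UMIs in the cluster. Thinning drew 1000 UMIs per cell without replacement, with 167 WT and 78 Vsir-/- shallower cells left out. Likeness used genes with at least 200 UMIs.

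The members and gene lists were chosen with earlier results of these data known. Named genes are the 8 members, pathway genes with at least 50 UMIs in the ILC2 cluster, the 8 genes most like the summed members and the 2 most like each, the 5 most abundant tubule genes, and marker genes where a result turns on them. A gene that this rule names is not reported here. Other pathway genes past 2-fold (Il17ra, Il9r, Tox, Batf, Lif and Il2), the ligands and receivers named by their library totals and the genes named in basophils, in the pDC cluster and beside Areg were chosen after their values were seen. Promoter windows came from RefSeq (GRCm38.p6), matched by symbol. Tools were scipy (version 1.17.1) for intervals, pandas (2.3.3) and numpy (2.4.6) for sums and matplotlib (3.10.9) for plots, under Python 3.11.15, and the computations were tested on simulated counts. Alternatives changed the cells kept, depth, denominator, weighting, fold, filter and pseudocount.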

Additional observations from a re-analysis of the deposited data

Results flagged for a closer look

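Gata3 was lower in Vsir-/- than in WT in the ILC2 cluster (log2 ratio -1.03, or -0.67 without the deepest cell) and higher in 2 other clusters whose intervals also left out 0. Gata3 was lower, with intervals that left out 0, in γδ T cells (-1.35, 50 and 12 UMIs) and EM-like CD4+ T cells (-0.30, 500 and 229 UMIs). The same was seen in neutrophils (-1.25, 49 and 6 UMIs), M2-like R2 (-2.07, 38 and 3) and Other R2 macrophages (-2.23, 19 and 2). In these 3 clusters the WT levels were low (19.8, 8.65 and 14.8 CPM). Their Vsir-/- counts lie near the limit of 3 UMIs, and they passed the filter mainly through WT. In the non-EM-like CD4+ cluster the log2 ratio was 1.28 (1.05 to 1.51, 222 and 556 UMIs), and in B cells it was 2.84 (1.60 to 4.11, 12 and 13 UMIs, with 7 of the 13 in 1 cell). The differences between clusters were not tested, since each genotype has 1 library. Tubule transcripts were higher in Vsir-/- in clusters of either direction. They stood at 357 and 9450 CPM in the non-EM-like CD4+ cells that held a T cell receptor transcript. In such cells of the EM-like CD4+ cluster they stood at 309 and 4210 CPM. In the ILC2 cluster they stood at 146 and 9667 CPM, the latter 5790 CPM without the deepest cell. Their part in the result was not tested.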

How the results depend on the processing

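No paired analysis was possible because each genotype has 1 library. Of 68 alternatives to the single-gene log2 ratios in the ILC2 cluster, 54 stayed within the interval of the reported value, which for Il5 and Kit is wide, or for Il13 remained a bound, and 12 moved out of it. In 2, both for Il5, a value whose interval had left out 0 changed sign (0.038 without the top cell of each library, and 3.48 in cells with no T cell receptor transcript, 19 WT and 2 Vsir-/-). Kit, whose interval took in 0, had 3 and 0 UMIs in those cells. The Il13 alternatives could not be counted as moved, because only those that still gave a bound were kept. Thinning and the cells with no T cell receptor transcript gave no bound for Il13 and are not among the 68. The log2 ratio of the summed genes, -0.51 as reported, was 0.18 after thinning, 0.43 in cells with no T cell receptor transcript and -0.061 with cells weighted equally. It was -0.23 without the deepest Vsir-/- cell and -0.10 without ILC2 cells above 10000 UMIs (5 WT, 2 Vsir-/-), alternatives chosen after seeing the data, so its direction depends on depth per cell and on few cells. The share of these UMIs in the ILC2 cluster was 33.1% in WT and 20.3% in Vsir-/- after thinning, 58.8% and 51.1% of the CPM summed over clusters, 28.1% in WT without top cells and 11.3% in Vsir-/- at up to 5% mitochondrial UMIs. Genes past 2-fold numbered 4 as reported, all lower. They were 2, both lower, at 3-fold and also without the deepest cell. In cells with no T cell receptor transcript 4 genes passed and 1 was past 2-fold, Areg, which was higher. There 1 of the 2 Vsir-/- cells held 22 of the 23 Areg UMIs. Without cells above 10000 UMIs Areg was higher and Il13 and Il17rb lower. Cells with at least 3 of the genes outside the cluster numbered 12 in WT and 7 in Vsir-/- for at least 4 genes, 3 and 1 after thinning, and 10 and 4 without Areg and Rora. Of the 8 genes most like the set, 5 were kept with log2(CPM + 1), 2 with Spearman's rho and 5 in the WT library alone. Neither gene named for Il1rl1 was kept under any of these alternatives or with at least 50 UMIs. Those named for Areg, Il13, Il17rb and Kit were each lost under 2 or more. The 19 Vsir-/- ILC2 cells limit every value of that group.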
